A study of Mus musculus with 4 samples.

Results

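Cytosolic ribosomal protein genes encode the protein components of the ribosome that translates nuclear-encoded mRNAs. They were taken as the GENCODE mm10 protein-coding genes whose symbol starts with Rpl or Rps followed by a digit, together with Rplp0, Rplp1, Rplp2 and Rpsa. Symbols starting with Rps6k (kinases) and pseudogene symbols were left out. The rule gave 86 of 21938 protein-coding genes. It used names and no measured value. Of the 86 genes, 77 encode core ribosomal proteins: 31 of the small subunit (Rpsa included), 43 of the large subunit and 3 of the P stalk. A further 8 are paralogs, and Rps19bp1 encodes a protein that binds RPS19 and is not itself a ribosomal component.

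Each ribosome carries a full set of these proteins in fixed proportion, so cells transcribe the whole family at high and matched levels. The promoters are compact, usually lack a TATA box, often lie in CpG islands, and start transcription at a pyrimidine-rich stretch that places the mRNAs under translational control through mTOR. Growing neural progenitors and newborn neurons depend on a steady supply of ribosomes, and inherited loss of a single copy of several of these genes causes Diamond-Blackfan anaemia.

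Open chromatin was measured by ATAC-seq, in which the Tn5 transposase cuts and tags accessible DNA, in hippocampi dissected from mice at postnatal day 0. The cKO group (2 libraries) had the genotype Kdm2bEmx1-delta-CxxC: Emx1-Cre, which is active in the dorsal telencephalon, deletes the exon for the CxxC zinc finger through which KDM2B binds unmethylated CpG DNA. The Ctrl group (2 libraries) had the genotype Kdm2bfl/+ or Kdm2bfl/fl, and which of these alleles each Ctrl library carried is not known here. The labels name the source as neural progenitor cells (NPCs), whereas the titles and protocols name whole hippocampus, so cells in which Emx1-Cre was never active were in the tissue too. Accessibility was read from the peak list of each library. In such bulk tissue, fewer cells with an open promoter and less opening per cell cannot be told apart.

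The 4 peak lists differed greatly in length, and Ctrl replicate 2 stood apart. The lists of Ctrl replicate 1, Ctrl replicate 2, cKO replicate 1 and cKO replicate 2 (the order of values throughout) held 46389, 7037, 21404 and 44535 peaks. The fragment numbers recovered from the lists were, in units of 1e+06, 14.6, 29.6, 19.4 and 17.1, so the library with the fewest peaks was also the deepest. Repeat-masked sequence filled at least 50% of the bases in 60.6% of the peaks of Ctrl replicate 2, against 5.37%, 14.7% and 7.25% in the other libraries. No strongest promoter peak of a ribosomal protein gene was of that kind. Hippocampal and dorsal telencephalic markers had promoter peaks at 7, 0, 5 and 8 of 8 genes, and radial glial markers at 5, 0, 4 and 6 of 6. Neither the 5 microglial nor the 4 endothelial markers had any. Interneuron markers, of cells from outside the Emx1 lineage, had peaks at 5, 0, 1 and 2 of 7 genes, choroid plexus markers at 2, 0, 2 and 2 of 3, oligodendrocyte lineage markers at 2, 0, 0 and 1 of 4 and erythroid markers at 1, 0, 1 and 1 of 5. Ranked against Ctrl replicate 1 alone, the markers higher and lower in both cKO libraries were 3 and 0 of 8 for hippocampus, 3 and 0 of 6 for radial glia, 0 and 3 of 5 with a peak for interneurons, 2 and 0 of 2 for choroid plexus, 0 and 1 of 2 for the oligodendrocyte lineage and 0 and 0 of 1 for erythroid cells, beside 23.8% and 36.6% of all genes. The part of such cells in the values given here was not tested. Group differences are therefore given with and without Ctrl replicate 2, and the part that library quality plays in them was not tested.

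The promoters that the results turn on are shown first, from 100 bases before to 30 bases after the RefSeq start (RefSeq sequences, GRCm38, the mm10 build, 5′ to 3′ on the strand of the gene). Rps19 and Rpl37 had the highest promoters of the family by mean rank over the libraries. Rps6 is the substrate of the S6 kinases. Rpl38, needed for patterning of the axial skeleton, held a lower rank in both cKO libraries than in Ctrl replicate 1. They lie at chr7:24884492-24884621 (+), chr15:5116513-5116642 (+), chr4:86857338-86857467 (-) and chr11:114668480-114668609 (+). Capitals mark CCGGAAG, the core of the motif bound by ETS factors such as GABPA, the palindrome CTCGCGAG, and the pyrimidine run at the start. That run was defined as C followed by C or T, at least 6 bases long, within 5 bases before to 10 bases after the start.
Rps19: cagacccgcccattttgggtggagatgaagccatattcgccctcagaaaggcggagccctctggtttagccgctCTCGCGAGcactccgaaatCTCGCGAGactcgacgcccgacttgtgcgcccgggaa
Rpl37: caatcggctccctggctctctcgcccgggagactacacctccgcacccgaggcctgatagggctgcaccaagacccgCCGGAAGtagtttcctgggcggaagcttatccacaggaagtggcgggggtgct
Rps6: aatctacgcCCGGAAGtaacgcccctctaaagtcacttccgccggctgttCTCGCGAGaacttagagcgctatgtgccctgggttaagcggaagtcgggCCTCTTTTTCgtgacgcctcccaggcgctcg
Rpl38: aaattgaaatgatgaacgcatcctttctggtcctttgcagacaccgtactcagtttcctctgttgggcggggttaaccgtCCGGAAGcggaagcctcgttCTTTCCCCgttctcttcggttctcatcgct

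Rps19 carried 2 copies of CTCGCGAG. Rpl37 held a CCGGAAG match. Rps6 held all the marked elements, and Rpl38 had CCGGAAG and a run. Such matches are descriptions of the letters, not sites of binding.

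For 66 of the 86 genes, a RefSeq promoter from 250 bases before to 50 bases after the start was at hand. These were compared with 15920 promoters of protein-coding genes of the same length. CCGGAAG on either strand was found in 24 of the 66 (36.4%) and in 12.7% of all promoters. The shorter ETS core CTTCCG, which lies in every CCGGAAG match read on the other strand, was in 43 (65.2%), against 22.8%. The palindrome CTCGCGAG was in 6 (9.09%), against 1.34%: Rpl12, Rpl26, Rpl27a, Rps19, Rps28 and Rps6. The pyrimidine run on the strand of the gene was present in 26 (39.4%), against 9.24%. ETS cores, the palindrome and the run thus had larger shares in the ribosomal protein promoters than in all promoters.

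The other motifs, searched on both strands, had shares above or below that of all promoters. AAGATGG was in 13.6% of the 66 promoters and 6.58% of all, ATGGCGG (the YY1 core) in 15.2% and 5.78%, and the CRE TGACGTCA in 7.58% and 2.52%. The GC box GGGCGG was in 62.1% and 49.9%, and the E box CACGTG in 7.58% and 8.27%. The CCAAT box was in 30.3%, against 38.9%, and TATAAA in 9.09%, against 12.9%. Base composition set the family apart less by GC content (median 57%, against 57.3%) than by CpG density, with a median observed over expected CpG ratio of 0.863, against 0.620. By GC content of at least 50% and a ratio of at least 0.6, 53 of the 66 (80.3%) were CpG-rich, against 49.3% of all promoters.

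Nearly all ribosomal protein promoters were open in the 3 longer lists. A gene was given a promoter peak where a summit lay within 2 kb of a transcription start site (TSS). By this, 82, 17, 76 and 82 of the 86 genes had a peak. The shares were 95.3%, 19.8%, 88.4% and 95.3%, against a background of 58%, 8.27%, 40.3% and 55.9% of all protein-coding genes. The family was thus above the background in every library, the short list of Ctrl replicate 2 included. All 77 core genes had a peak in Ctrl replicate 1 and in cKO replicate 2. In cKO replicate 1 the number was 72, and in Ctrl replicate 2 it was 16.

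Peak strength was read as the promoter percentile, that is, the percentage of all protein-coding genes that a gene's strongest promoter peak outranked in a library, with 0 given to a gene without a peak. The family averaged 79.2, 18.8, 74.2 and 79.5, against 41.2, 7.93, 32.1 and 40.2 over all genes. Since percentiles are bounded below by the length of the list, a gene with a peak cannot fall under 42.0, 91.7, 59.7 and 44.1. Among genes with a peak, the median of the family was 85.4, 95.4, 86.5 and 86.6, against 71.0, 95.6, 79.9 and 72.1 for all genes. In the 3 longer lists the ribosomal protein promoters therefore ranked above the typical open promoter, whereas in Ctrl replicate 2 their median did not exceed that of other genes.

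**Figure D1:**
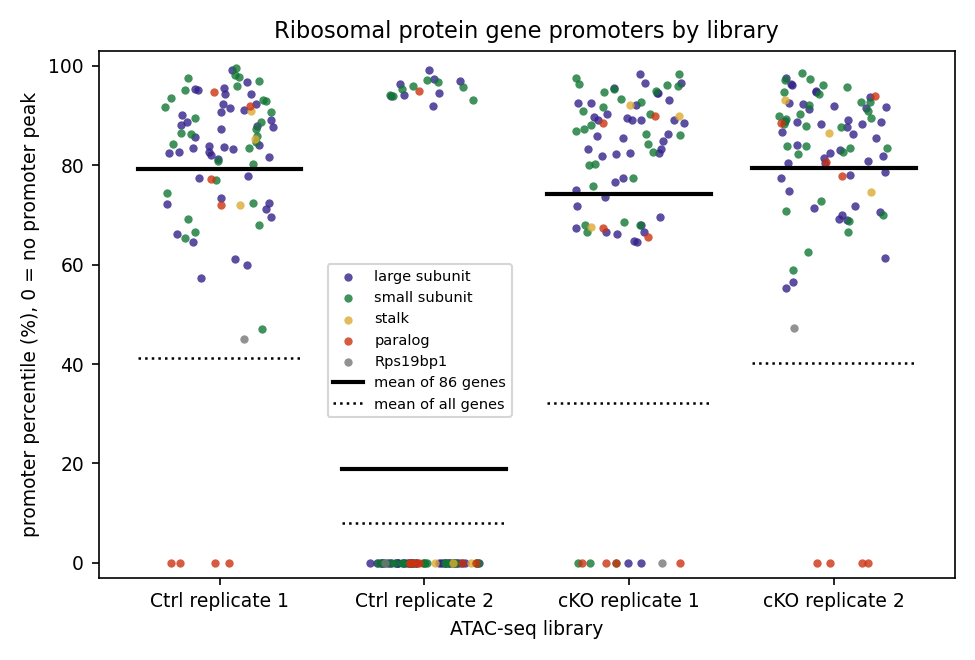
Promoter percentile (%, y axis) of each of the 86 genes in the 4 libraries (x axis), coloured by role, with the mean of the family (solid line) and of all protein-coding genes (dotted line). The family mean is 79.2, 18.8, 74.2 and 79.5, and most genes of Ctrl replicate 2 sit at 0, without a promoter peak.

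The family was not at the very top of the lists. Its best peak ranked 144, 1467, 462 and 339 among all peaks of the library, and its median peak ranked 3263.5, 3741, 3982.5 and 3289.5. Of the genes with a peak, 57 (69.5%), 0, 19 (25%) and 50 (61.0%) had it within the strongest 10% of the list. The same shares over all genes with a promoter peak were 33.4%, 0.937%, 19.3% and 30.3%. In Ctrl replicate 1 and cKO replicate 2 the family's share was well above that of all genes, in cKO replicate 1 slightly above, and in Ctrl replicate 2 no gene of the family reached that range.

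The height of the peaks was recovered as scaled depth, the number of fragments over the summit relative to the library's genome-wide average. Its median over the genes with a peak was 40.4, 5.77, 15.7 and 34.3, against 23.4, 6.06, 11.6 and 19.9 over all genes with a promoter peak. In fragments, the median summit held 65.5, 20, 32.5 and 62. The weakest held 11, 15, 13 and 13 fragments and the strongest 187, 29, 71 and 151. The summits of Ctrl replicate 2 thus had the narrowest range in fragments. In scaled depth their range, 4.33 to 8.37, was both the narrowest and the lowest. Peaks of the family were 723.5, 318, 483.5 and 713 bp wide at the median, against 676.5, 342, 476 and 636 bp. In 97.6%, 100%, 97.4% and 97.6% of the genes there was no further promoter peak, against 88.6%, 98.8%, 94.3% and 87.9% of all genes with a peak.

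The small-subunit genes had peaks at 31, 8, 28 and 31 of 31 promoters, with a median percentile of 86.5, 0, 86.8 and 88.3. The highest was Rps19 (ENSMUSG00000040952.16, chr7:24884371-24889806), the gene most often mutated in Diamond-Blackfan anaemia. Its percentile was 99.5, 97.2, 98.3 and 98.6, and its scaled depth 115, 7.51, 34.2 and 83.6. It ranked among the highest promoters in all 4 libraries although its height differed between them, and the percentiles of the groups overlapped. Rps23, whose product lies at the decoding centre, had percentiles of 98.1, 95.6, 97.6 and 97.1. Rps29 had 97.7, 96.8, 94.8 and 97.3, Rps21 97.5, 95.4, 95.9 and 94.3, and Rps14, deleted in the human 5q- syndrome, 96.8, 93.8, 96.3 and 96.0. All these promoters were open in every library.

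Rps6 (ENSMUSG00000028495.14, chr4:86854660-86857412) had percentiles of 86.3, 93.1, 90.4 and 89.5, and Rps26 had 86.5, 94.2, 87.3 and 89.4. For both, Ctrl replicate 1 was the lowest and Ctrl replicate 2 the highest, so the groups overlapped. Rpsa, which encodes a protein also known as the laminin receptor, had 93.5, 0, 90.9 and 87.9. Rps27a, which encodes ubiquitin fused to a ribosomal protein, had 93.2, 0, 91.6 and 92.0, with a summit nearer to the start of Clhc1 in Ctrl replicate 1 and cKO replicate 1. Both were open in all libraries but Ctrl replicate 2, and both cKO values lay below Ctrl replicate 1.

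Of the small-subunit genes, 3 had no peak in cKO replicate 1, Rps10 and Rps4x among them. Their percentiles were 65.3, 0, 0 and 72.9 for Rps10 and 47.0, 0, 0 and 59.0 for the X-linked Rps4x. Rps4x was the weakest core promoter in Ctrl replicate 1, and its summits held 12 and 20 fragments. For these genes the replicates of each group disagreed, so the groups overlapped.

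The large-subunit genes had peaks at 43, 8, 41 and 43 of 43 promoters, with a median percentile of 83.8, 0, 84.8 and 85.5. Rpl37 (ENSMUSG00000041841.8, chr15:5116645-5119140) led them with 99.0, 97.3, 98.4 and 97.4, and a scaled depth of 96.2, 6.93, 33.3 and 70.9. Rpl27, another gene mutated in Diamond-Blackfan anaemia, had 96.7, 99.1, 95.6 and 96.1, the highest percentile of the family in Ctrl replicate 2. Rpl10, on the X chromosome, encodes a late-joining protein needed for the subunits to meet, and had 90.6, 96.8, 96.5 and 92.3. Rpl10 overlapped between the groups, whereas both cKO values of Rpl27 lay below both Ctrl values.

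RPL5 and RPL11 form a particle with 5S rRNA that binds MDM2 when ribosome assembly fails. Rpl5 had percentiles of 91.5, 96.3, 89.0 and 91.3, and Rpl11 had 72.4, 0, 82.5 and 85.5. Against Ctrl replicate 1, Rpl11 was higher in both cKO libraries, and Rpl5 was lower in cKO replicate 1 and nearly level in cKO replicate 2. Rpl11 had no peak in Ctrl replicate 2, which gives it 0 there. Rpl22, whose loss affects T cells, had 95.0, 0, 88.5 and 94.7, and Rpl38 had 82.5, 0, 69.5 and 78.0. Both were highest in Ctrl replicate 1.

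Among the other large-subunit genes, peaks in all 4 libraries were found at Rpl7a (87.4, 91.8, 89.6 and 91.9), Rpl7 (87.9, 94.2, 92.5 and 83.1), Rpl41 (84.0, 93.8, 82.4 and 88.6) and Rpl23a (83.8, 94.6, 89.2 and 80.4). The groups of all of these overlapped. The summit of Rpl7a was nearer to the start of Med22 in all 4 libraries. Rpl13, with 82.1, 0, 0 and 77.3, and Rpl6, with 64.6, 0, 0 and 69.2, were the large-subunit genes without a peak in cKO replicate 1.

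The P stalk recruits the elongation factors. RPLP0 anchors it and RPLP1 and RPLP2 form its arms. Rplp0 had percentiles of 85.2, 0, 89.9 and 86.5, Rplp1 71.9, 0, 67.7 and 74.6, and Rplp2 90.8, 0, 92.0 and 93.0. All 3 lacked a peak in Ctrl replicate 2. Both cKO values exceeded both Ctrl values for Rplp0 and Rplp2, but not for Rplp1.

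Among the 8 paralogs, 4 had a peak in the 3 longer lists and 4 had none in any list. Rpl22l1, the paralog of Rpl22, had 94.7, 0, 88.4 and 94.0, close to Rpl22 itself. Rpl7l1 had 72.0, 0, 65.6 and 80.7, and Rps27l, a p53 target, had 77.2, 0, 67.4 and 77.8. Rpl36al had 91.9, 95.0, 89.9 and 88.6 and was the paralog with a peak in Ctrl replicate 2. Rps19bp1 had 45.1, 0, 0 and 47.2, close to the lowest percentile these lists allow, with summits of 11 and 13 fragments.

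The genes without a peak in any list were Rpl10l and Rpl39l, known from the testis, Rpl3l, known from heart and skeletal muscle, and the retrogene Rps27rt. The promoters of Rpl3l at chr17:24727726-24727855 (+) and Rps27rt at chr9:114982710-114982839 (-) are shown with that of Rps27 at chr3:90213619-90213748 (-), the gene of the same protein name, because they differ in peak calls. Capitals mark the same elements as above.
Rpl3l: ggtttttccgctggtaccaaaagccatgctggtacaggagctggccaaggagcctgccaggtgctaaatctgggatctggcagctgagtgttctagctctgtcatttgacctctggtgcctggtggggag
Rps27rt: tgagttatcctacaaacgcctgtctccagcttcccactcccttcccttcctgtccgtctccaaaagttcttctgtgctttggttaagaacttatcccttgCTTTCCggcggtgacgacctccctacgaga
Rps27: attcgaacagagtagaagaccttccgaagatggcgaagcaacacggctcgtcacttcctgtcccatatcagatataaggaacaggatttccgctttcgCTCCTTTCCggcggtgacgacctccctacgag

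Rpl3l held none of the marked elements and had 2 CpG sites in 300 bases, an observed over expected ratio of 0.0892, the lowest of the 66. Rps27, chosen for this comparison after its values were seen, had percentiles of 80.8, 0, 67.9 and 83.8, with a summit nearer to the start of Rab13 in Ctrl replicate 1. From the first base of Rps27rt onwards the 2 genes shared an identical run of 38 bases, but of the 100 bases before it 21 matched. Rps27 had 22 CpG sites and a ratio of 1.18, and Rps27rt 9 sites and 0.633. The ratios of Rpl10l and Rpl39l were 0.643 and 0.836, so a low CpG ratio was not shared by all the genes without peaks.

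**Figure D2:**
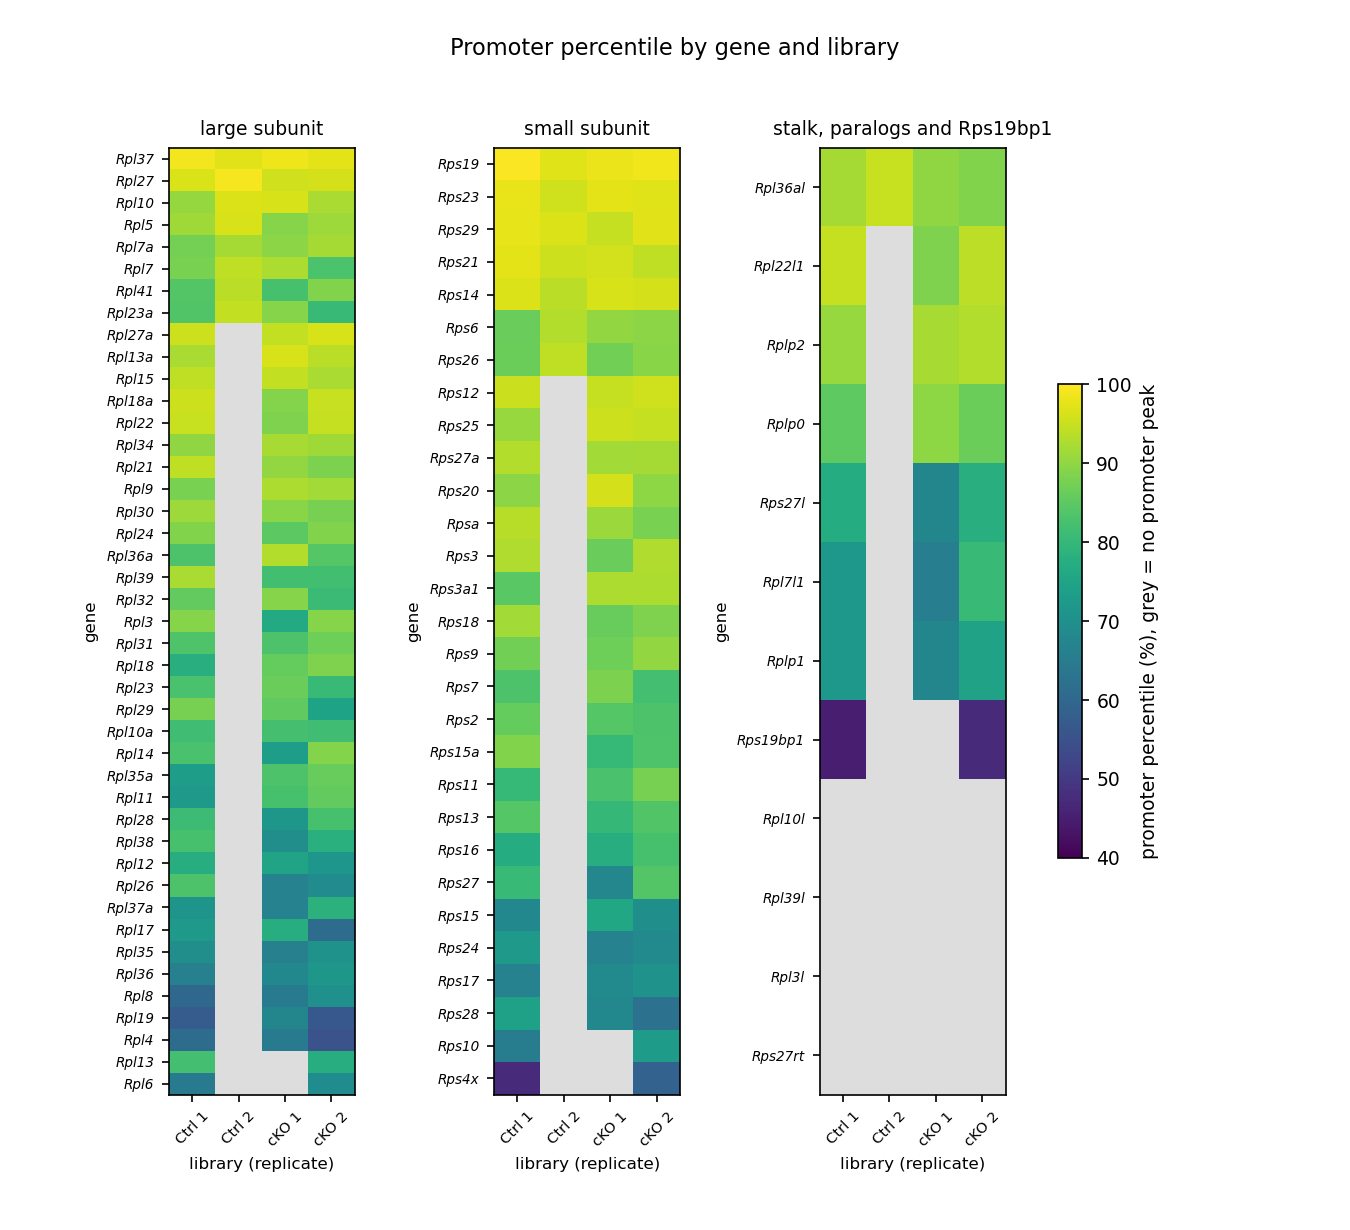
Promoter percentile (colour, %) of the genes (rows; a few are not reported here) in the libraries (columns), with grey for no promoter peak. Most of the column of Ctrl replicate 2 is grey, and 4 genes are grey in every column.

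The summits lay close to the starts of the genes. The median distance from the strongest summit to the nearest TSS of the gene was 45, 105, 68.5 and 42.5 bp, against 91, 141, 97 and 96 bp over all genes with a promoter peak. Within 200 bp lay 76 (92.7%), 13 (76.5%), 71 (93.4%) and 74 (90.2%) of the summits, against 75.3%, 65.8%, 76.0% and 74.2%. The family's summits were nearer the start in all 4 libraries. Of the 76 genes with a peak in the 3 longer lists, 59 (77.6%) had all 3 summits within 100 bp of each other, against 64.2% of the 8734 genes with such peaks. The median spread was 46.5 bp, against 70 bp.

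**Figure D3:**
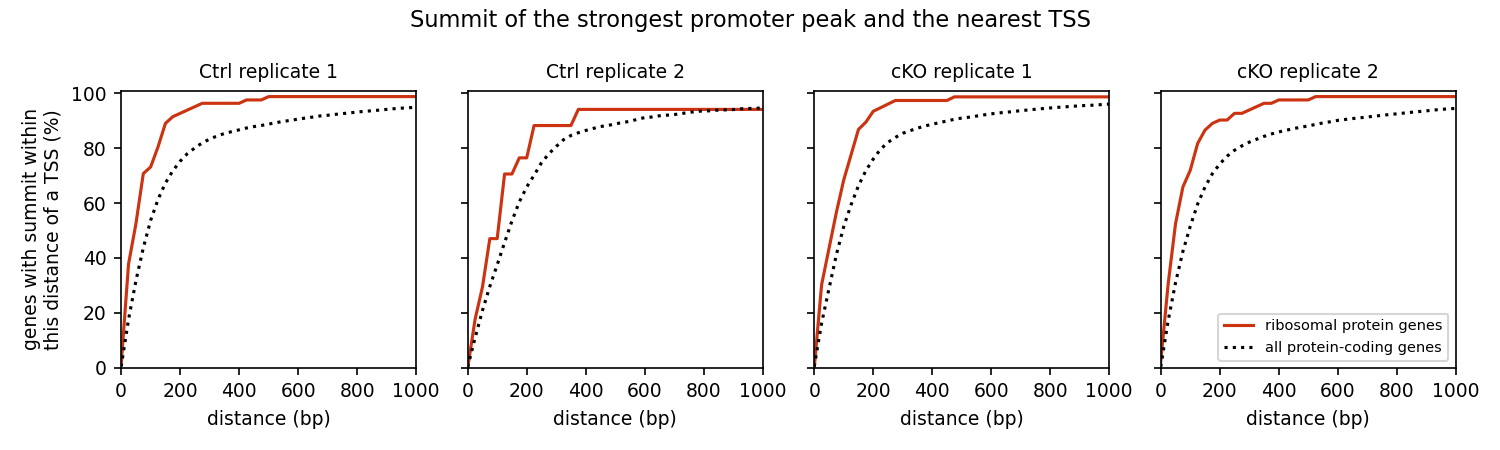
Cumulative share (%, y axis) of genes whose strongest promoter summit lies within a given distance (bp, x axis) of a TSS, for ribosomal protein genes (red) and all protein-coding genes (dotted), 1 panel per library. At 200 bp the ribosomal protein curve stands at 92.7%, 76.5%, 93.4% and 90.2%, above the dotted curve in each panel.

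Rpl41 had the most distant summits, 1474, 1288, 1265 and 1289 bp downstream of its start, nearer to the start of Zc3h10. Its peak therefore cannot be assigned to Rpl41 rather than Zc3h10. Rpl35 had summits 488, 475 and 523 bp downstream of its GENCODE start in the 3 longer lists, which lie -5, -18 and 30 bp from its RefSeq start. A total of 18 genes (20.9%) shared their window with the TSS of another protein-coding gene, and 10, 2, 8 and 8 summits were nearer to such a gene than to the ribosomal protein gene. The genes are scattered over 19 chromosomes, with 14 on chromosome 7 and 4 on X. Within the bounds of 30 genes, on the same strand, lie 58 annotated snoRNA genes, a class that guides modification of rRNA. These hosts had median percentiles of 88.2, 0, 89.0 and 87.8, against 83.5, 0, 84.8 and 86.2 for the 47 core genes without a snoRNA.

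Whether deletion of the CxxC zinc finger changed the openness of these promoters is the comparison that the design implies. More ribosomal protein genes had a promoter peak in cKO than in Ctrl, and their mean percentile was higher, but both differences turned negative without Ctrl replicate 2. The numbers of genes with a peak were 76 and 82 in cKO and 82 and 17 in Ctrl, or 79 ± 4.24 and 49.5 ± 46.0 (SD, n = 2), a difference of 29.5. Mean percentiles were 76.9 ± 3.75 and 49.0 ± 42.7 (SD, n = 2), a difference of 27.8. Both differences were smaller than the SD of the Ctrl group. They were 18.5 genes and 18.8 points with lists of equal size, and the second was 11.2 points with the mid-rank in place of 0 for genes without a peak. Without Ctrl replicate 2 they became -3 genes and -2.39 percentile points. Without Ctrl replicate 1 they were 62 genes and 58.0 points. Over all protein-coding genes, 40.3% and 55.9% had a peak in cKO and 58% and 8.27% in Ctrl. Their mean percentiles were 32.1 and 40.2 in cKO and 41.2 and 7.93 in Ctrl. All genes thus also stood higher in cKO with Ctrl replicate 2 and lower without it, so these directions were not particular to the family.

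Heights gave no steadier difference. Over the 76 genes with a peak in the 3 longer lists (in Ctrl replicate 2, those with a peak), the median scaled depth was 43.2, 5.77, 15.7 and 36.0. The groups averaged 25.8 ± 14.4 in cKO and 24.5 ± 26.4 in Ctrl (SD, n = 2), a difference of 1.36 that lay within the spread of either group. It became -17.3 when Ctrl replicate 2 was omitted, -8.80 on omission of cKO replicate 2, 20.1 for Ctrl replicate 1 and 11.5 for cKO replicate 1.

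Gene by gene, 18 of the 82 genes with a peak (22.0%) had higher percentiles in each cKO library than in either Ctrl library, against a background of 20.5% of the 13196 genes tested. Another 4 (4.88%) were lower in both, against 2.8%. The share of higher genes was close to its background, and that of lower genes rests on 4 genes and on denominators made mostly of genes that could not be lower. With 4 libraries an exact two-sided permutation test has 6 assignments and cannot go below p = 0.333, and after Benjamini-Hochberg adjustment over all genes tested no p fell below 1, so no gene passed. All 18 higher genes lacked a peak in Ctrl replicate 2, which sets that value to 0 whatever the height below the calling threshold. Without Ctrl replicate 2, 22 genes (26.8%) were above the remaining Ctrl library in both cKO libraries, against a background of 23.8% of 13176 genes, and 31 (37.8%) below it, against 36.6%. These shares too were close to the background.

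Of the 18 higher genes, Rps3a1 had 84.7, 0, 92.7 and 92.7, a mean difference of 50.3 (exact permutation p = 0.333, adjusted p = 1). Rps25, required for initiation at several viral internal ribosome entry sites, had 90.7, 0, 95.4 and 94.8. Rpl13a, known for release from the ribosome to silence inflammatory mRNAs, had 92.3, 0, 96.5 and 93.8. Rps20 had 89.5, 0, 96.1 and 89.8, and Rpl18 77.8, 0, 85.8 and 88.3. The differences of these were 49.8, 49.0, 48.2 and 48.2. Without Ctrl replicate 2 the differences of Rps3a1, Rps25, Rpl13a, Rps20 and Rpl18 fell to 8.01, 4.42, 2.84, 3.48 and 9.23, so most of each rests on a value of 0. The summits of Rps25 lay nearer to the start of Trappc4 in all 3 longer lists. Rpl18 was read from a different peak, at another of its starts, in Ctrl replicate 1 than in the cKO libraries, and its summit was nearer to Sphk2 in Ctrl replicate 1 and cKO replicate 2. The values of Rps25 and Rpl18 therefore cannot be assigned to these genes rather than their neighbours.

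A gene without a peak in Ctrl replicate 2 cannot be lower in both cKO libraries, so the 4 lower genes came from the 17 with such a peak. Their share of these was 23.5%, against 20.4% of the 1815 genes with a peak there, close to the background. Rpl36al had 91.9, 95.0, 89.9 and 88.6, a difference of -4.18 from a Ctrl mean of 93.4 ± 2.21 (SD, n = 2). The differences were -3.78 for Rpl5 and -2.09 for Rpl27. Without Ctrl replicate 2 they were -2.61 for Rpl36al, -1.38 for Rpl5 and -0.880 for Rpl27. In these genes the groups did not overlap (exact permutation p = 0.333 and adjusted p = 1 for each). A peak in Ctrl replicate 2 cannot have a percentile under 91.7.

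To set the longer lists side by side, percentiles were taken again among the 8734 genes with a peak in all of Ctrl replicate 1, cKO replicate 1 and cKO replicate 2, which include 76 ribosomal protein genes. The mean of the family was 62.9, 59.8 and 63.0 in these libraries, and its median 66.0, 66.2 and 69.4. In both cKO libraries 19 genes (25%) were above Ctrl replicate 1, against 31.7% of the 8734, and 30 (39.5%) were below it, against 31.5%. The median difference was -1.88 points in the family and 0 over all. A single Ctrl library remains in this comparison, so it has no replicate check on that side.

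Single genes differed in both directions within it. Rpl11 had 33.1 in Ctrl replicate 1 and 56.0 and 63.7 in cKO, Rpl18 had 45.3, then 64.4 and 70.7, and Rps3a1 had 61.7, then 81.6 and 81.7. Rpl38 had 56.5, then 23.6 and 45.5. Rpl26, chosen after its values were seen, had 58.5, then 16.5 and 26.1. Rpl18 was read from different peaks in Ctrl and cKO. The values of Rpl11, Rpl18 and Rps3a1 lay above Ctrl replicate 1 in both cKO libraries, whereas Rpl38 differed between them by more than cKO replicate 2 differed from Ctrl replicate 1.

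**Figure D4:**
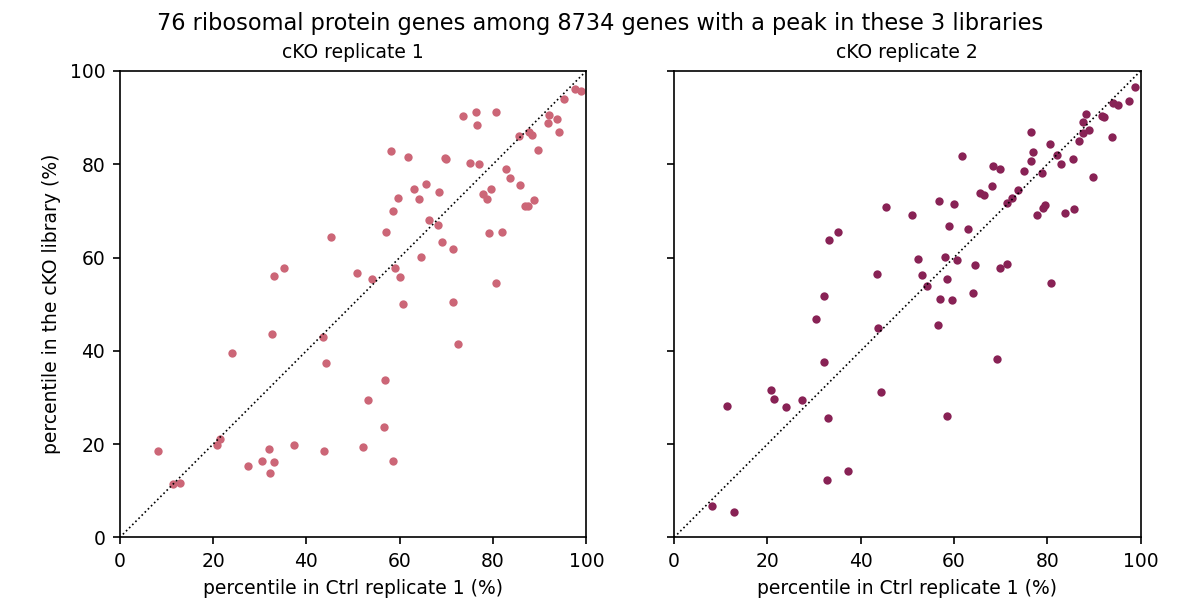
Percentile (%) of 76 ribosomal protein genes among 8734 genes with a peak in 3 libraries, in each cKO library (y axis) against Ctrl replicate 1 (x axis), with the dotted line of equality. Of the genes, 19 lie above the line in both panels and 30 below it in both.

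The order of the genes was kept across the longer lists. Spearman's rho of the percentiles over these 76 genes was 0.824 between Ctrl replicate 1 and cKO replicate 1, 0.855 between Ctrl replicate 1 and cKO replicate 2, and 0.826 between the cKO libraries. Over all 8734 genes it was 0.871, 0.929 and 0.875. These are descriptions across genes, which are not independent replicates, and the points share their libraries and depth. The value between the cKO libraries lay between those of each with Ctrl replicate 1. The median range of a gene over the libraries was 5.86 points in the family and 6.42 over all.

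The 17 genes with a peak in Ctrl replicate 2 were the stronger ones elsewhere, with median percentiles of 91.9, 93.2 and 91.9 in the other libraries, against 83.5, 83.2 and 84.1 for the 59 genes open in those alone. They were 8 large-subunit genes, 8 small-subunit genes and Rpl36al. Of the 41 genes at or above the family's median in Ctrl replicate 1, 15 (36.6%) had a peak in Ctrl replicate 2, against 46.4% of all genes as strong. In cKO replicate 1 the family lacked fewer peaks: of genes open in Ctrl replicate 1 and cKO replicate 2, 76 of 82 (92.7%) had a peak there too, against 73.9% of all 11826 such genes. The 11826 genes were not matched to the family for strength.

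Genes of neighbouring functions gave a frame for these values. Mitochondrial ribosomal protein genes, which build a separate ribosome, had peaks at 77, 13, 50 and 78 of 78 promoters, and nuclear genes of oxidative phosphorylation at 78, 13, 56 and 77 of 85. Both lists lacked more peaks in cKO replicate 1 than the cytosolic family, which had 76 of 86 there. They were not matched to the family for strength. Their median percentiles in Ctrl replicate 1 were 72.3 and 74.6, against 84.4 in the family. The part that strength plays in these counts was not tested. Initiation factors had 31, 5, 25 and 31 of 31, elongation and termination factors 11, 7, 11 and 11 of 11, and ribosome biogenesis factors 49, 9, 38 and 49 of 49. Fau, whose product is a ubiquitin-like fusion of a ribosomal protein, and Rack1, a small-subunit partner, had peaks in all libraries but Ctrl replicate 2.

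Known regulators of ribosomal protein genes and their mRNAs had peaks at 15, 5, 13 and 15 of 15 promoters. Gabpa, an ETS factor, had percentiles of 87.4, 94.7, 91.3 and 87.9, and Mtor had 96.4, 96.8, 96.9 and 97.7. Larp1, whose product binds the pyrimidine-rich mRNA starts, had 50.5, 0, 0 and 46.6. Counts of genes higher and lower in each cKO library than in either Ctrl library were 10 and 2 of 78 for mitochondrial ribosomal proteins with a peak, 14 and 1 of 78 for oxidative phosphorylation, 2 and 3 of 31 for initiation, 5 and 0 of 11 for elongation and termination, 11 and 1 of 49 for biogenesis and 7 and 0 of 15 for regulators, beside 20.5% higher and 2.8% lower over all genes tested. Without Ctrl replicate 2 the counts were 11 and 27, 17 and 34, 4 and 16, 6 and 2, 12 and 18, and 8 and 5 in the same order, beside 23.8% and 36.6%. None of these genes could pass the test in this design.

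**Figure D5:**
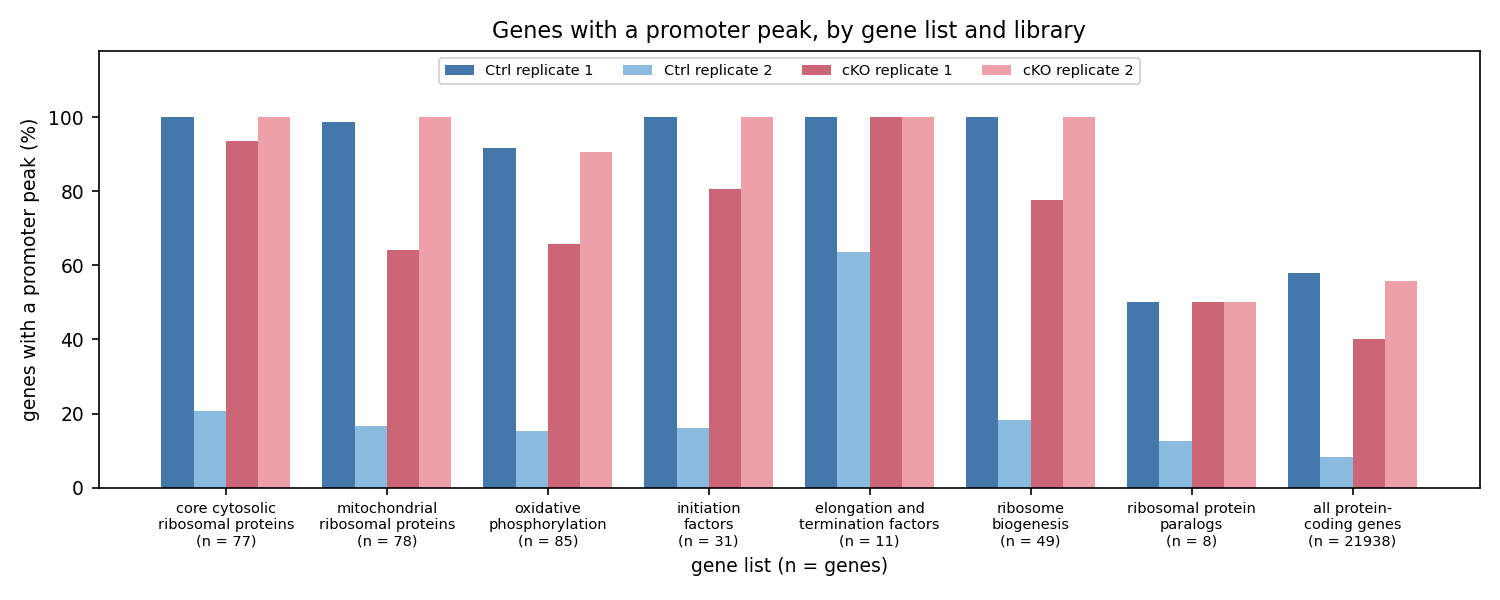
Share (%, y axis) of the genes of each list (x axis, n = genes in the list) with a promoter peak, 1 bar per library. The 77 core cytosolic ribosomal protein genes stand at 100%, 20.8%, 93.5% and 100%, and all protein-coding genes at 58%, 8.27%, 40.3% and 55.9%.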

How the data were processed

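ATAC-seq was performed on nuclei from P0 hippocampi (2 cKO and 2 Ctrl libraries). Per the study's methods and the submitters' processing notes, reads were trimmed with cutadapt and aligned to mm10 with Bowtie2. Mitochondrial, blacklisted and duplicate reads were removed (SAMtools, Picard), Tn5 offsets were shifted, and MACS2 2.2.7.1 called peaks in each library by itself, without a control. Each deposited list gives, per peak, a score, the fold enrichment at the summit (a ratio), the −log10 p-value and the −log10 q-value, all computed by the authors with MACS2. The lowest −log10 q-value was 1.31, and columns for every library were used.

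TSSs were taken from GENCODE M21 (GRCm38, coordinates 1-based), with 21938 protein-coding genes outside the mitochondrial genome. Genes were ranked by the −log10 p-value of their strongest promoter peak. Fragment depth at a summit and the genome mean depth were recovered from the fold and p-value. Recovered depths were whole within 0.01 for 100%, 99.9858%, 99.9953% and 100% of peaks. Library sizes followed from the genome size of 1.87e+09 that MACS2 uses for mouse, and cover counting only. Promoter sequences were RefSeq entries (GRCm38.p6) matching the RefSeq Select start. Python 3.11.15, pandas 2.3.3, scipy 1.17.1 and statsmodels 0.14.6 were used, and the scripts were tested on simulated data.

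Groups were compared gene by gene by exact permutation (two-sided, 6 assignments), with Benjamini-Hochberg adjustment over 13196 genes. No test was made over the family. A few genes enter the counts but are not reported here by name. The labels do not say that replicates came from separate animals or litters, so p-values measure only the spread between these samples. Named genes were the 8 highest by mean percentile, genes without any peak, up to 15 with a peak in all lists, up to 5 per direction whose groups did not overlap, up to 6 with a peak in only some of the longer lists, and genes fixed for known roles. The gene set and gene lists were chosen with earlier results of these data known, and the motifs and the comparison over 8734 genes after seeing the data. Alternatives covered list length, promoter window, peak assignment, q-value, ranking, genes without a peak, members, shared promoters, repeats, TSS choice, pairing and each library left out.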

Additional observations from a re-analysis of the deposited data

How the results depend on the processing

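Leaving out each library moved the cKO minus Ctrl difference in genes with a promoter peak from -3 (without Ctrl replicate 2) to 62 (without Ctrl replicate 1), around 29.5 with all libraries. The difference in mean percentile, 27.8 with all libraries, ranged from -2.39 to 58.0 for the same omissions and was -1.47 among the 8734 genes with a peak in the other 3 libraries. The difference in median scaled depth (1.36) ranged from -17.3 without Ctrl replicate 2 to 20.1 without Ctrl replicate 1, and was -8.80 without cKO replicate 2. Counts of genes higher in both cKO libraries ran from 22 to 63, against 18, and of genes lower from 6 to 31, against 4, partly because fewer libraries have to differ. Without Ctrl replicate 1, Ctrl replicate 2, cKO replicate 1 and cKO replicate 2 in turn, the shares of higher genes were 76.8%, 26.8%, 45.1% and 31.7%, against 59.6%, 23.8%, 44.9% and 34.5% of all genes, and of lower genes 12.2%, 37.8%, 8.54% and 7.32%, against 8.86%, 36.6%, 5.15% and 5.24%. The remaining settings changed no direction. Differences ran from 18.5 (equal-size lists) to 31.5 (a −log10 q of at least 5) genes. They ran from 11.2 (mid-rank for genes without a peak) to 30.5 points, and from 1.09 to 1.79 in scaled depth. Counts ran from 13 to 20 higher and 3 to 4 lower. Shares over all genes under these settings are not given here, so these counts cannot be read against a background.

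The shared replicate numbers are not known to pair the samples (correlation of deviations of same-numbered libraries -0.25 over 1760 genes). With the replicate block the differences were by construction 29.5, 27.8 and 1.36, and 27 genes (32.9%, against 32.2% of all genes) were higher and 6 (7.32%, against 4.30%) lower in both pairs. With the crossed pairing, chosen after seeing the data, these were 32 (39.0%, against 29.6%) and 7 (8.54%, against 4.63%).

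The list of Ctrl replicate 2 leaves 69 of the 86 genes at 0 although this library was the deepest, and heights below the calling threshold were not analysed here. The weakest summits rest on 11 to 15 fragments. The smallest p that 2 libraries a group allow is 0.333.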

Other observations

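The genome also holds many processed pseudogenes copied from ribosomal protein mRNAs, of which 294 carry a ribosomal protein pseudogene symbol. A peak summit within 2 kb of their start was found at 10, 3, 5 and 11 of them in Ctrl replicate 1, Ctrl replicate 2, cKO replicate 1 and cKO replicate 2, or 3.40%, 1.02%, 1.70% and 3.74%. Over all 10236 processed pseudogenes the shares were 4.14%, 0.733%, 2.00% and 4.39%. Of the 290 without a protein-coding TSS within 2 kb, 9, 2, 4 and 10 had a peak. Rpl30-ps10 was the member of these 290 with a peak in all 4 lists, and Rpl29-ps2, which lies near a protein-coding TSS, also had 1 in each. The shares at ribosomal protein pseudogenes were thus near those of all processed pseudogenes.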
